A study of Drosophila melanogaster with 16 samples.

Results

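The obstructor genes encode secreted proteins that bind chitin, and 8 of them were read on the arrays by a probeset assigned to a single gene: obst-A, obst-B, obst-E, obst-F, obst-G, obst-H, obst-I and obst-J. They were chosen by symbol alone, as every gene whose symbol begins with obst- in the array's annotation and in the RefSeq gene table. They are 8 of 11899 genes with such a probeset on the main chromosomes, and 7 of them were among the 8866 genes that passed the filter on low values, the exception being obst-I. Transcript levels were measured in whole Drosophila embryos from mothers mutant for bcd, nos and tsl that also carried the da-Gal4 driver. Without these maternal cues the embryos form no anterior, posterior or terminal regions and do not gastrulate. All 8 genotypes share this background, WT included, so WT here means naïve embryos with no expressed pathway transgene and not wild-type flies. Each of the other 7 genotypes expressed a UAS transgene in all cells through da-Gal4.

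Wg++ embryos expressed the ligand Wg, and arm∆N embryos expressed a form of Arm, the fly β-catenin, without the N-terminal region that marks it for degradation. These were the active states of the canonical pathway. The blocked states were tcf∆N-short, a TCF without its Arm-binding, Groucho-binding and C-clamp regions, tcf∆N-long, which lacks only the region that binds β-catenin, and DisArmed, an Arm without its C-terminal activating region and with a mutated Pygopus site. Embryos labelled arm∆N-tcf∆N-short expressed both transgenes together and are counted with the blocked states below, and Otk++ embryos expressed Otk, a co-receptor assigned to the non-canonical branch. Both TCF forms carried an HA tag and were inserted at the same genomic site. Each genotype had 2 arrays, 16 in all, each from a pool of embryos of mixed ages, so the p-values measure the spread between such pools. In whole embryos, fewer cells of a type and less RNA per cell cannot be told apart.

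Chitin is a polymer of N-acetylglucosamine that stiffens the cuticle, lines the tracheal tubes and forms part of the sheath around food in the gut. Obstructor proteins carry chitin-binding domains of the peritrophin-A type and attach to chitin fibres outside the cell. Obst-A is known to hold a scaffold at the surface of the new cuticle and of the tracheal lumen, where it keeps chitin deacetylases such as Serp and Verm in place, and Obst-E is known for setting how the larval cuticle reshapes at pupation. The gene table lists 2 further relatives under other names, Gasp (obst-C) and Peritrophin-A (obst-D). When Wg reaches a cell, Arm is spared from degradation, enters the nucleus and binds TCF, which otherwise represses its targets together with Groucho.

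The family lies on 3 chromosome arms. In the Release 6 assembly, obst-A (CG17052) spans chrX:20239855-20243209, obst-B (CG4778) chr2L:10032690-10038954 and obst-E (CG11142) chr2L:5762553-5766142. The other members all lie on 3L: obst-I (CG32304) at chr3L:2267858-2268590, obst-G (CG9781) at chr3L:11952301-11953317, obst-H (CG33983) at chr3L:15528265-15529243, obst-J (CG7348) at chr3L:20130451-20131743 and obst-F (CG7306) at chr3L:20200443-20201638. The span of obst-J falls inside that of gig, the fly orthologue of the tuberous sclerosis gene TSC2. The span of obst-F overlaps that of CG42833, which was not among the genes tested, and whether the obst-F probes also read it was not tested.

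The study also tested TCF occupancy by chromatin immunoprecipitation at obst-G and obst-J, and the primers used there are shown because they mark the only obstructor loci assayed in that way. Both genes had been taken from a cluster of genes found on these same arrays. The study describes it as high in Wg++ and arm∆N, mildly lower in tcf∆N-long and strongly lower in tcf∆N-short. Their direction in these genotypes is therefore not independent evidence. The primers lie on 3L and each is written 5′ to 3′, all in lower case because no part is marked.
obst-G forward: gcttacccgctaaagaaggc
obst-G reverse: agacatccaatcgaccacttt
obst-J forward: taaggtcaagatgcggctga
obst-J reverse: tcgaatccgtttcccgtcaa
The obst-G primers are 20 and 21 bases long with a GC content of 55.0% and 42.9%, and both obst-J primers are 20 bases with 50.0%. The study names CG13806 and CG7252 as bound by tcf∆N-short with high H3K27me3, a histone mark of repressed genes. It does not name obst-G or obst-J among them. The occupancy values themselves are not analysed here.

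Values are log2 units after GC-RMA, a normalization that corrects each probe for background by its base content. The lowest value was 2.29 on all 16 arrays, and group means under 3 are called near the lowest value below, since differences at that level are compressed. A gene was called changed when its fold change exceeded 1.5 and its Benjamini-Hochberg adjusted p in limma, over all 8866 genes, was under 10%. The labels were checked on the transgenes' own genes. wg averaged 10.09 ± 0.08 in Wg++ and 6.41 ± 0.02 in WT (SD, n = 2 each). pan, the gene of TCF, averaged 11.10 ± 0.17 in tcf∆N-long, 10.81 ± 0.19 in tcf∆N-short and 10.64 ± 0.33 in arm∆N-tcf∆N-short, against 4.98 ± 0.54 in WT (SD, n = 2 each). The labels of arm∆N, DisArmed and Otk++ were not checked in this way, nor was the arm∆N part of arm∆N-tcf∆N-short. Replicate arrays correlated at r = 0.954 to 0.988, but the arrays of tcf∆N-short and arm∆N-tcf∆N-short lay closest to each other across genotypes rather than to their own replicates, and the second WT and second Otk++ arrays lay closest to a DisArmed array.

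**Figure D1:**
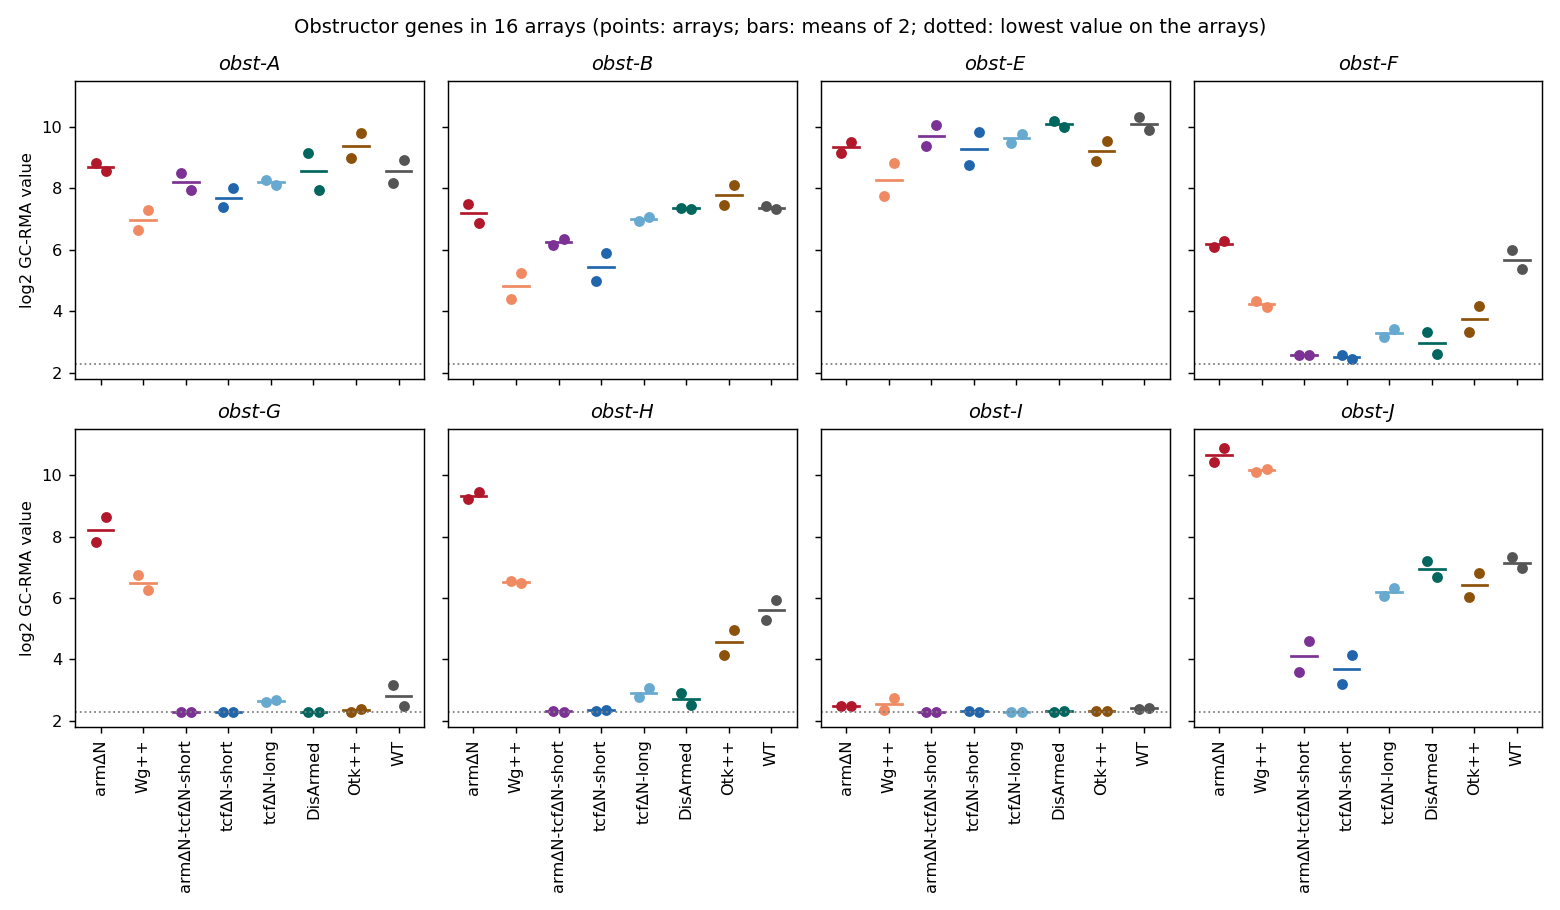
Log2 GC-RMA value (vertical axis) of the 8 obstructor genes in each genotype (horizontal axis); points are the 2 arrays, bars their mean and the dotted line the lowest value on the arrays. obst-G, obst-H and obst-J stand highest in arm∆N and Wg++, obst-A, obst-B and obst-E are lowest in Wg++, and obst-I stays between 2.29 and 2.75.

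By direction in Wg++ the tested members fell into 2 sets. obst-G, obst-H and obst-J were higher in both active states than in WT, and all 4 of the remaining tested members, obst-A, obst-B, obst-E and obst-F, were lower in Wg++ than in WT. Over all 16 arrays, however, obst-F went with obst-G, obst-H and obst-J, at r = 0.69, 0.90 and 0.77. In Wg++ all 7 tested members were called, 3 higher and 4 lower, where 18.8% of all genes were called higher and 22.1% lower. In arm∆N the same 3 were called higher and none lower, where 7.93% of all genes were called higher and 11.7% lower. The median change of the 7 members was -1.46 in Wg++ and 0.49 in arm∆N, beside -0.11 and -0.08 over all genes. All contrasts with WT share the same 2 WT arrays. By an F test in limma across the 7 transgenic genotypes, held to an FDR of 1%, 5 of the 7 members were altered somewhere, where 12.4% of all genes were. These were obst-B (adjusted p = 0.00133), obst-F (7.43e-05), obst-G (9.83e-07), obst-H (8.82e-07) and obst-J (7.66e-06), while obst-A (0.0302) and obst-E (0.0683) were not.

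**Figure D2:**
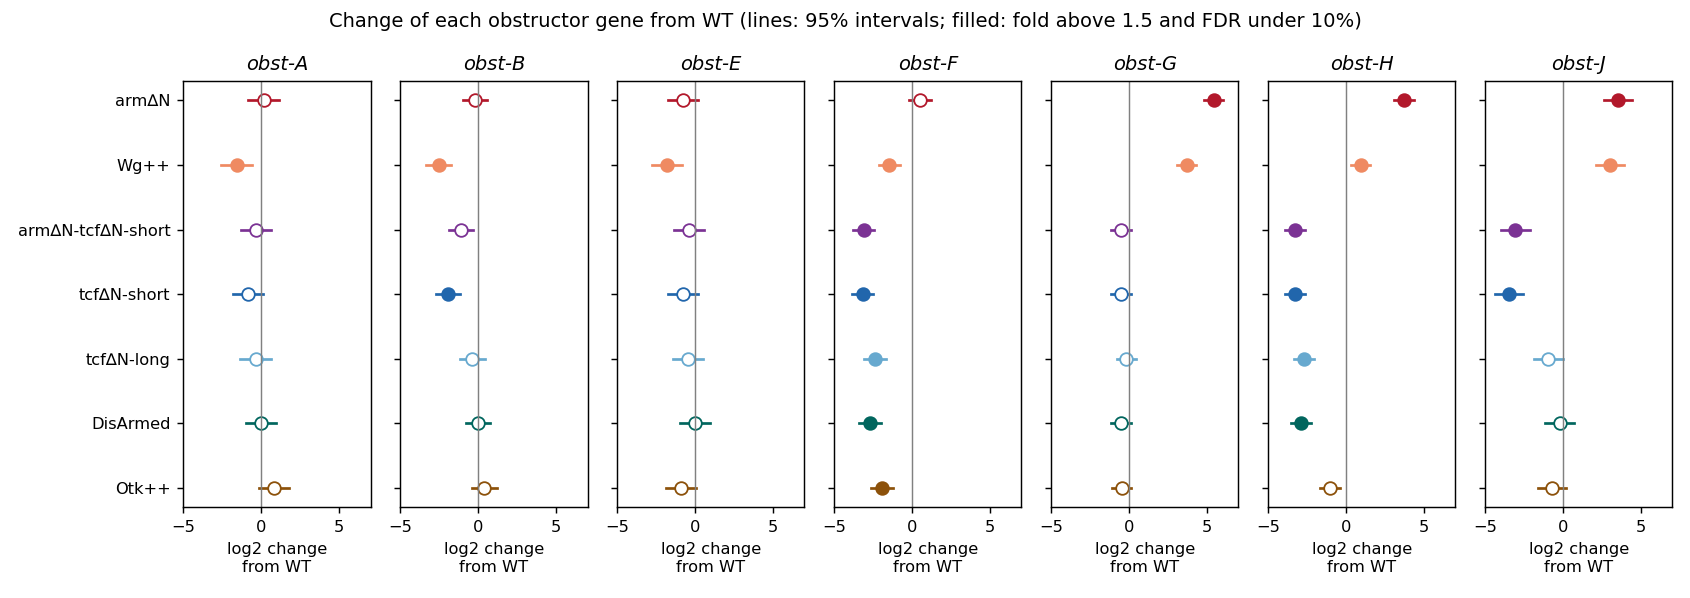
Log2 change from WT (horizontal axis) of the 7 tested obstructor genes in the 7 transgenic genotypes (vertical axis); lines are 95% intervals from limma and filled points mark called changes. The filled points to the right of 0 are obst-G, obst-H and obst-J in arm∆N and Wg++, from 0.92 for obst-H in Wg++ to 5.41 for obst-G in arm∆N.

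The best known cuticle gene of the family, obst-A, differed from WT by a called amount in Wg++ only. It read 6.65 and 7.31 in Wg++, against 8.18 and 8.93 in WT. Both Wg++ arrays lay below every other array of the series. The difference was -1.57 (SE 0.44, adjusted p = 0.0183 by limma), a 2.98-fold lower level, and it was no longer called without the second WT array or without the first Wg++ array, with a highest adjusted p of 0.136. In the remaining genotypes obst-A ran between 7.39 in one tcf∆N-short array and 9.80 in one Otk++ array, and none of those differences from WT was called. In arm∆N it differed from WT by 0.15, with a 95% interval of -0.83 to 1.13, and in DisArmed by 0.01 (-0.97 to 0.98).

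obst-B, which encodes a chitin-binding protein of the same subgroup, had the largest drop of the tested members in Wg++. It read 4.41 and 5.25 in Wg++, 5.0 and 5.90 in tcf∆N-short and 7.42 and 7.33 in WT. These were the 2 genotypes in which it fell, by 2.54 on the log2 scale in Wg++ (SE 0.35, adjusted p = 0.000998) and by 1.92 in tcf∆N-short (SE 0.35, adjusted p = 0.0102, limma). The tcf∆N-short call was lost in a fit of only the tcf∆N-short and WT arrays (adjusted p = 0.207, limma). The direct difference between Wg++ and tcf∆N-short was -0.62 (95% interval -1.40 to 0.16, not called). In arm∆N-tcf∆N-short it read 6.16 and 6.35, an intermediate level that was -1.12 from WT and not called (adjusted p = 0.197). In arm∆N, tcf∆N-long and DisArmed its differences from WT lay between -0.37 and -0.01, none called. Otk++ had the highest mean, 7.78 ± 0.46 (SD, n = 2), against 7.37 ± 0.07 in WT, and this difference was not called either.

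obst-E was read by 2 probesets, of which the one that varied more was used. It read 7.75 and 8.82 in Wg++, against 10.33 and 9.90 in WT, and the groups did not overlap. The difference was -1.82 (SE 0.43, adjusted p = 0.00862, limma), and -1.39 by the other probeset (adjusted p = 0.0319). No other genotype was called against WT in obst-E. The arm∆N arrays, at 9.17 and 9.51, were 0.77 lower than WT by their means with an adjusted p of 0.270, and the other probeset put the same difference at -0.20.

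The 3 cuticle members were thus lower with Wg but were not called with arm∆N, although both transgenes activate the pathway. Compared directly, Wg++ was below arm∆N by -1.72 for obst-A (SE 0.44, adjusted p = 0.0158), by -2.36 for obst-B (SE 0.35, adjusted p = 0.00348) and by -1.05 for obst-E (SE 0.43, adjusted p = 0.0887, limma). The obst-A call was lost without the first Wg++ array (adjusted p = 0.122). The obst-E call was lost in 7 of the 16 fits that left out an array and did not hold at an FDR of 5%. Of the 7 tested members, 6 were called lower in Wg++ than in arm∆N and none higher, where 18.4% and 18.7% of all genes were called. The exception was obst-J, at -0.51 (95% interval -1.42 to 0.41).

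Gasp, a chitin-binding protein of the tracheal lumen, and Peritrophin-A, the relatives with other names, moved like the cuticle members in these 2 genotypes. Gasp read 8.03 and 8.04 in Wg++, against 10.22 and 10.52 in WT, a difference of -2.34 (SE 0.35, adjusted p = 0.00136), and differed from WT by 0.62 in arm∆N (not called). Peritrophin-A read 6.36 and 6.73 in Wg++ and 6.31 and 7.09 in tcf∆N-short, against 8.20 and 7.79 in WT. Its difference from WT was -1.44 in Wg++ (SE 0.39, adjusted p = 0.0156) and -1.29 in tcf∆N-short (SE 0.39, adjusted p = 0.0939, limma). Like obst-B, it was therefore called lower both with Wg and with tcf∆N-short. The chitin list they belong to holds 18 genes for synthesis, assembly and turnover, all tested. In Wg++ 13 of the 18 were called lower and none higher, with a median of -1.29 beside -0.11 over all genes. In arm∆N 3 were called lower and 1 higher. Over all genes 22.1% were called lower in Wg++, and 11.7% lower and 7.93% higher in arm∆N. Among the 13 was Cht5, a chitinase, at -4.58. In tcf∆N-short 5 of the 18 were called lower, and 1, Chs2, in each of tcf∆N-long and arm∆N-tcf∆N-short. Over all genes 5.26%, 2.26% and 1.47% were called lower in these genotypes, in that order. Chs2 is known as the chitin synthase of the gut, and it was the gene called higher in arm∆N, at 1.36, with 0.24 in Wg++ (not called), -1.40 in tcf∆N-long, -1.30 in arm∆N-tcf∆N-short and, with tcf∆N-short alone, -1.78.

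Tracheal and epidermal markers are set beside these drops because the chitin genes above are made there. In Wg++ 5 of 6 tested tracheal markers were called lower, among them trh, the tracheal selector gene, at -2.66, and the mean log2 value over the 6 was 7.20 to 7.37 in Wg++ against 8.73 to 9.0 in WT. The list includes serp, verm and Gasp, which the chitin list also holds. Of 10 epidermal and cuticle markers, 3 were called lower in Wg++ and their mean log2 value was 5.39 to 5.73, against 5.78 to 6.63 in WT. These markers include mmy and kkv, which the chitin list holds as well. Over all genes 22.1% were called lower in Wg++. In arm∆N 2 tracheal markers were called lower, trh at -1.69 and rib at -0.89, and the list mean was 8.50 to 8.75. Of the 10 epidermal and cuticle markers, 2 were called higher in arm∆N and none lower, and the list mean was 6.30 to 6.63. Over all genes 11.7% were called lower in arm∆N and 7.93% higher. The part of such cells in the obst-A, obst-B and obst-E values was not tested. None of the 6 tracheal and none of the 10 epidermal markers was called in tcf∆N-short, where obst-B fell and 5.26% of all genes were called lower. The tracheal list mean there was 8.26 to 8.65, below both WT arrays, and the epidermal list mean was 5.79 to 6.11.

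obst-F, a less studied member of the family, combined a drop in Wg++ with larger drops in each blocked state. It read 6.08 and 6.28 in arm∆N and 4.32 and 4.13 in Wg++. In the blocked states it read 3.17 and 3.42 in tcf∆N-long, 3.34 and 2.62 in DisArmed, 2.59 and 2.45 in tcf∆N-short and 2.58 in both arm∆N-tcf∆N-short arrays, against 5.98 and 5.39 in WT. All 8 of these arrays and both Wg++ arrays lay below both WT arrays, and the arm∆N arrays lay above them. The differences from WT were -3.16 in tcf∆N-short, -2.39 in tcf∆N-long, -2.70 in DisArmed and -3.10 in arm∆N-tcf∆N-short (SE 0.31 each), with adjusted p values from 0.000195 to 0.00302 by limma. The tcf∆N-short, DisArmed and arm∆N-tcf∆N-short means were near the lowest value, so these 3 may understate the change.

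obst-F was also the only member called in Otk++, where it read 3.34 and 4.16, against 5.98 and 5.39 in WT. The difference was -1.93 (SE 0.31, adjusted p = 0.0613, limma), and it was lost in 6 of the 16 fits that left out an array, in which the adjusted p reached 0.575, and at an FDR of 5%. The value itself stayed between -2.34 and -1.53 in all 16. Only 0.203% of all genes were called lower in Otk++, and 0.124% higher. Ordered by mean, obst-F ran from arm∆N (6.18) and WT (5.68) through Wg++ (4.23), Otk++ (3.75), tcf∆N-long (3.3) and DisArmed (2.98) to arm∆N-tcf∆N-short (2.58) and tcf∆N-short (2.52). Of these neighbours only WT and Wg++ differed by a called amount.

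obst-G had the largest response of the family to active signalling. It read 7.83 and 8.63 in arm∆N and 6.75 and 6.25 in Wg++. In the 4 genotypes with a blocked pathway and in Otk++ all 10 arrays lay between 2.29 and 2.67, against 3.15 and 2.49 in WT. The gene was thus well above the lowest value in the 2 active states only, and in the 4 arrays of tcf∆N-short and arm∆N-tcf∆N-short it stood at 2.29, the lowest value itself. The difference from WT was 5.41 in arm∆N (SE 0.28, adjusted p = 5.03e-06) and 3.68 in Wg++ (SE 0.28, adjusted p = 6.37e-05, limma). As the WT mean of 2.82 was near the lowest value, both may understate the change, and no fold is given for the blocked states, where both groups were near it. arm∆N exceeded Wg++ as well: the difference of Wg++ from arm∆N was -1.73 (SE 0.28, adjusted p = 0.00388).

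obst-H responded in both directions. It read 9.21 and 9.44 in arm∆N and 6.54 and 6.50 in Wg++. It read 2.76 and 3.08 in tcf∆N-long, 2.92 and 2.51 in DisArmed, 2.33 and 2.36 in tcf∆N-short and 2.33 and 2.29 in arm∆N-tcf∆N-short, against 5.28 and 5.92 in WT. No array of an active state overlapped with WT, and no array of a blocked state came within 2 log2 units of WT. It rose by 3.73 in arm∆N (SE 0.29, adjusted p = 5.75e-05) and by 0.92 in Wg++ (SE 0.29, adjusted p = 0.0300, limma). The Wg++ call was lost without the first WT array or without the first Wg++ array, with values from 0.60 to 1.23 and an adjusted p of up to 0.198. The drops were -3.26 in tcf∆N-short, -2.68 in tcf∆N-long, -2.89 in DisArmed and -3.29 in arm∆N-tcf∆N-short (SE 0.29 each), with adjusted p values from 8.38e-05 to 0.00161, and all 4 group means were near the lowest value.

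Between WT and these blocked states stood Otk++, in which obst-H read 4.13 and 4.97, against 5.28 and 5.92 in WT. The difference of -1.05 (95% interval -1.69 to -0.41) was not called, with an adjusted p of 0.164. obst-H had the most steps in the order of its means: arm∆N (9.33) over Wg++ (6.52), Wg++ over WT (5.6), and Otk++ (4.55) over tcf∆N-long (2.92) were all called, and the lowest 4 genotypes did not differ. Over all 28 pairs of genotypes, obst-H was called in 21, obst-J in 20, obst-F in 18, obst-G in 13, obst-B in 12, obst-A in 7 and obst-E in 5, where an average gene was called in 14% of the pairs.

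obst-J stood at unequal levels among the dominant-negative forms. It read 10.42 and 10.90 in arm∆N and 10.11 and 10.20 in Wg++. It read 3.19 and 4.15 in tcf∆N-short and 3.58 and 4.61 in arm∆N-tcf∆N-short, but 6.08 and 6.33 in tcf∆N-long and 7.20 and 6.67 in DisArmed, against 7.34 and 6.96 in WT. DisArmed thus overlapped with WT, tcf∆N-long lay less than 1 log2 unit below it on average, and the genotypes with the short TCF lay more than 2 log2 units below either by their means. The gene rose by 3.51 in arm∆N (SE 0.41, adjusted p = 0.000742) and by 3.01 in Wg++ (SE 0.41, adjusted p = 0.000970, limma). It fell by 3.48 in tcf∆N-short (adjusted p = 0.000752) and by 3.06 in arm∆N-tcf∆N-short (adjusted p = 0.00228, both SE 0.41). The difference was -0.94 in tcf∆N-long (95% interval -1.86 to -0.03, adjusted p = 0.272), -0.22 in DisArmed (-1.13 to 0.70) and -0.73 in Otk++ (-1.64 to 0.19), none called.

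Because the obst-J span lies within gig, the values of gig are given beside it. gig was called in Wg++, at 0.90, and differed from WT by -0.29 in arm∆N, 0.06 in tcf∆N-short and 0.07 in arm∆N-tcf∆N-short. obst-J differed from WT by -3.48 to 3.51 in those 3 genotypes. Whether the obst-J probes also read gig was not tested.

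obst-I could not be tested. Its values ran from 2.29 to 2.75, and only 1 array, the second of Wg++, lay above the filter value of 2.5. All its group means were near the lowest value.

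The blocked states are set side by side next. In tcf∆N-short 4 of the 7 tested members, obst-B, obst-F, obst-H and obst-J, were called lower and none higher, where 5.26% of all genes were called lower and 2.52% higher. In tcf∆N-long 2 members, obst-F and obst-H, were called lower, where 2.26% of all genes were and 1.49% were called higher. In DisArmed the same 2 members were called lower, where 0.361% of all genes were and 0.237% were called higher. In arm∆N-tcf∆N-short obst-F, obst-H and obst-J were called lower, where 1.47% of all genes were and 1.71% were called higher. The median change of the 7 members was -1.92 in tcf∆N-short, -0.48 in tcf∆N-long, -0.22 in DisArmed and -1.12 in arm∆N-tcf∆N-short, beside 0.00, -0.08, -0.05 and -0.03 over all genes.

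tcf∆N-short was also compared directly with tcf∆N-long, which keeps the regions that bind Groucho and form the C-clamp. Whether those regions account for a difference was not tested. 2 members were called lower in tcf∆N-short, where 2.12% of all genes were, and none higher, where 1.08% were. obst-J was lower by -2.53 (SE 0.41, adjusted p = 0.0101) and obst-B by -1.55 (SE 0.35, adjusted p = 0.0563, limma). Neither was called in a fit of only the arrays of these genotypes. The study had picked obst-J by a profile of this order on these arrays, so its difference is a description. The obst-J call was lost without the first tcf∆N-short array or the second tcf∆N-long array, with an adjusted p of up to 0.104. The obst-B call was lost without the first tcf∆N-short array or either tcf∆N-long array, and at an FDR of 5%. obst-F differed by -0.77 (95% interval -1.46 to -0.09) and obst-H by -0.58 (-1.22 to 0.06), neither called. obst-G and obst-H were near the lowest value in both genotypes, and obst-F was in tcf∆N-short, so their differences may be understated. Between DisArmed and tcf∆N-long no member was called, and 0 of 7 had an unadjusted p under 0.05 in limma, where 1.40% of all genes were called lower and 0.541% higher. obst-G and obst-H were near the lowest value in both of these genotypes and obst-F in DisArmed, so a difference there could be hidden.

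When arm∆N was expressed together with tcf∆N-short, the rise of obst-G, obst-H and obst-J was not seen. Against arm∆N alone, arm∆N-tcf∆N-short was lower by -5.94 for obst-G, by -7.02 for obst-H, by -6.57 for obst-J and by -3.60 for obst-F, with adjusted p values from 4.00e-07 to 2.55e-05 by limma. In arm∆N-tcf∆N-short obst-F, obst-G and obst-H averaged near the lowest value, so the size of the drop is a lower bound for these 3. The members called were 4 of the 7 tested members, none was called higher, and 5.38% of all genes were called lower and 6.29% higher. Against tcf∆N-short alone, none of the 7 was called, 1 had an unadjusted p under 0.05 in limma (obst-B, at 0.80), and 0.0677% of all genes were called lower and 0.102% higher. For obst-J, the member of the 3 that stayed above the lowest value in both genotypes, this difference was 0.42 (95% interval -0.49 to 1.33).

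**Figure D3:**
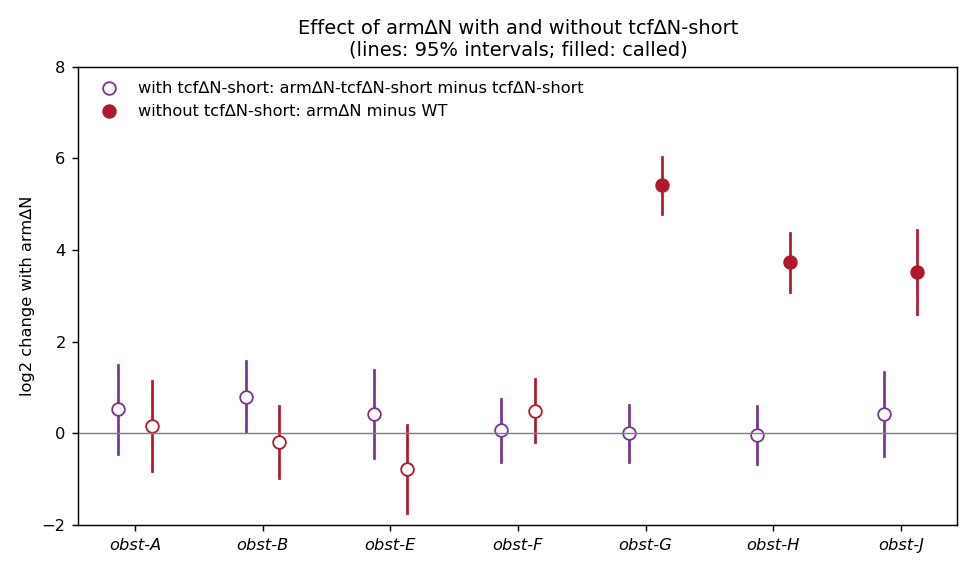
Log2 change brought by arm∆N (vertical axis) for the 7 tested obstructor genes, with tcf∆N-short (left of each pair) and without it (right); lines are 95% intervals and filled points mark called changes. With tcf∆N-short every point lies between -0.04 and 0.80, and without it obst-G, obst-H and obst-J lie at 5.41, 3.73 and 3.51.

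The test of the difference between these effects, the interaction of both transgenes, called the same 3 members. The effect of arm∆N was smaller with tcf∆N-short by -5.41 for obst-G (SE 0.40, adjusted p = 0.000120), by -3.76 for obst-H (SE 0.41, adjusted p = 0.00129) and by -3.09 for obst-J (SE 0.59, adjusted p = 0.0179, limma). 4.12% of all genes had a called interaction in this direction and 7.12% in the other. Both genotypes with tcf∆N-short held obst-G and obst-H near the lowest value, where a rise from a level below it would not be seen, so the size of the interaction was not measured for these 2 genes. For obst-J, which stayed above it, the call was lost in a fit of only the 4 genotypes compared (adjusted p = 0.116, limma). obst-A, obst-B, obst-E and obst-F had no called interaction, and their values were 0.37, 0.99, 1.19 and -0.44. Expression of arm∆N in arm∆N-tcf∆N-short was not checked.

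The active states were also set against tcf∆N-short. arm∆N exceeded tcf∆N-short by 6.99 for obst-J, 6.98 for obst-H, 5.94 for obst-G, 3.66 for obst-F and 1.74 for obst-B, all called higher. These were 5 of 7 members, where 7.09% of all genes were called higher and 5.97% lower. The obst-B call was lost without the first tcf∆N-short array (adjusted p = 0.105). Wg++ exceeded tcf∆N-short by 6.48 for obst-J, 4.21 for obst-G, 4.17 for obst-H and 1.70 for obst-F, also called. As obst-F, obst-G and obst-H averaged near the lowest value in tcf∆N-short, their differences in both comparisons are lower bounds. The 4 called members of 7 in Wg++ stand where 14.9% of all genes were called higher and 13.3% lower. For obst-F, therefore, Wg++ lay above tcf∆N-short although it lay below WT.

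The genes known as feedback targets of Wg, measured on the same arrays, are given for comparison. Notum, which inactivates Wnt ligands, rose by 3.04 in arm∆N and by 1.04 in Wg++. fz3, a Frizzled receptor, rose by 1.69 in arm∆N, was 0.28 above WT in Wg++ and differed by -1.16 in tcf∆N-long and by -1.84 in tcf∆N-short, both called. nkd, an inhibitor of the pathway, was called in none of these, with values from -0.89 to 0.58. In DisArmed none of the 4 genes wg, fz3, Notum and nkd was called, with a median change of 0.15 beside -0.05 over all genes. Of all genes, 0.361% were called lower there and 0.237% higher. Like Notum, obst-G and obst-H had a larger rise in arm∆N than in Wg++.

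The chitin-binding genes tested by the study along with obst-G and obst-J were taken from the same cluster of these arrays, so their direction is a description too. All 7 of them were called higher in Wg++ (median 2.32) and 6 of 7 in arm∆N (median 3.15). In tcf∆N-short 6 of 7 were called lower, with 1 in tcf∆N-long, 3 in arm∆N-tcf∆N-short and 1 in DisArmed. Over all genes 18.8% were called higher in Wg++ and 7.93% in arm∆N. The shares called lower were 5.26% in tcf∆N-short, 2.26% in tcf∆N-long, 1.47% in arm∆N-tcf∆N-short and 0.361% in DisArmed. In tcf∆N-short 5 of the 7 were called lower than in tcf∆N-long, as obst-J was, where 2.12% of all genes were. The study had picked these genes and obst-J by a profile that falls more in tcf∆N-short than in tcf∆N-long. This order therefore follows from that choice. CG6933 was among the 3 genes most like obst-J, with r = 0.98 over the 16 arrays.

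Correlation over the 16 arrays, given as a description, placed obst-F with obst-G, obst-H and obst-J. obst-F, obst-G, obst-H and obst-J correlated with each other at r = 0.69 to 0.90, the highest being obst-F with obst-H. obst-A and obst-B correlated at 0.87, obst-B and obst-E at 0.66 and obst-A and obst-E at 0.50. Between the 2 groups r ran from -0.47, for obst-E with obst-G, to 0.29, for obst-B with obst-F. The points share libraries and normalization, and replicate arrays are 8 pairs, so these values carry no p.

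**Figure D4:**
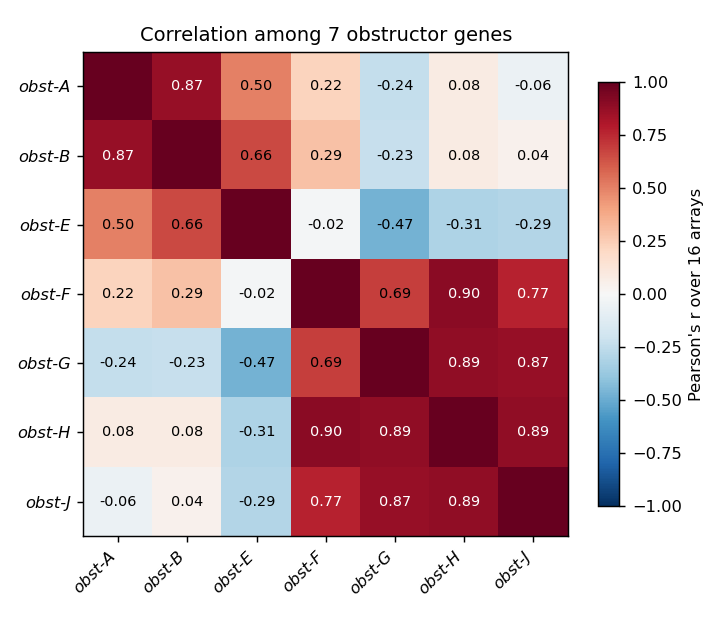
Pearson's r over the 16 arrays for each pair of the 7 tested obstructor genes, listed on both axes; colour and number give r. obst-A and obst-B stand at 0.87, obst-F, obst-G, obst-H and obst-J at 0.69 to 0.90 among themselves, and pairs across the groups at 0.29 or less.

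The genes most like each member by the same measure were of several kinds. obst-A was most like serp, the chitin deacetylase of the tracheal lumen (r = 0.96), with CG3777 and Muc91C, a mucin, at 0.95. obst-B was most like TwdlG, a cuticle protein of the Tweedle family (0.96), with CG8854 (0.96) and CG31751 (0.95). obst-E was most like l(2)34Fc (0.96), bond, an elongase of very long fatty acids (0.95), and UQCR-14, a subunit of a respiratory complex (0.94). obst-F was most like CG17826 and Cda9, a chitin deacetylase (both 0.98), and Pgant4, an enzyme that adds sugars to secreted proteins (0.97). obst-G was most like Mco4, a multicopper oxidase (0.99), with CG14780 and CG30047 at 0.98. obst-H was most like CG15153 (0.99), CG11672 (0.97) and CG14273 (0.96), and obst-J was most like CG6933 and CG12934 (both 0.98) and CG31267 (0.97). No member was among the 3 genes most like another.

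As these genes were chosen by correlation on the same arrays, a pattern shared with their member follows from that choice and is a description. The genes most like obst-F shared its drop in the blocked states. Pgant4 differed from WT by -2.77 in tcf∆N-short, -2.67 in tcf∆N-long, -2.73 in DisArmed, -2.78 in arm∆N-tcf∆N-short, -1.87 in Otk++ and -1.31 in Wg++, all called. Its means in every blocked state were near the lowest value, so those drops may be understated. Unlike obst-F, Pgant4 was also called in arm∆N, at 1.5. Mco4, most like obst-G, rose by 5.73 in arm∆N and by 5.17 in Wg++ and was near the lowest value in WT and in every blocked state. CG15153, most like obst-H, rose by 2.38 in arm∆N, was 0.16 above WT in Wg++ and fell to near the lowest value in every blocked state.

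Some neighbours on the chromosome shared the pattern of a member and others did not. CG17826, 76 bp from obst-G, read 6.80 and 7.36 in arm∆N, 5.40 and 5.06 in Wg++ and 2.29 and 2.32 in tcf∆N-short, against 6.25 and 6.23 in WT. Its differences from WT were -3.93 in tcf∆N-short, -2.72 in tcf∆N-long, -3.68 in DisArmed, -3.94 in arm∆N-tcf∆N-short, -2.28 in Otk++ and -1.01 in Wg++, all called. Its means in tcf∆N-short, DisArmed and arm∆N-tcf∆N-short were near the lowest value, so these drops may be understated. CG17826 thus followed obst-F, some distance away on the same arm, and not obst-G beside it. CG7252, 3053 bp on the same side, rose by 3.15 in arm∆N and by 2.11 in Wg++ like obst-G, while CG7248, 766 bp on the other side, differed from WT by -0.37 and -0.66 there. The study had taken CG7252, like obst-G, from its cluster of genes high in Wg++ and arm∆N on these arrays. Its rise is therefore a description.

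Beside obst-F, CG7298 at 432 bp rose by 3.36 in arm∆N and by 3.01 in Wg++, where obst-F was not called and fell, and CG7298 was called in none of the blocked states. CG13806, 218 bp from obst-I, read 9.75 and 9.86 in arm∆N, 8.40 and 8.48 in Wg++ and 2.75 and 3.01 in tcf∆N-short, against 6.58 and 6.33 in WT. Its differences from WT were 3.35, 1.99 and -3.57, all called, although obst-I itself stayed near the lowest value. CG13806 too was taken by the study from the cluster of genes high in Wg++ and arm∆N and low in tcf∆N-short. These changes are therefore a description, and the CG13806 mean in tcf∆N-short was near the lowest value. Peritrophin-A lies 1438 bp from obst-A, and both were called lower in Wg++ and not called in arm∆N. No tested gene was among the 4 nearest to obst-H.

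**Figure D5:**
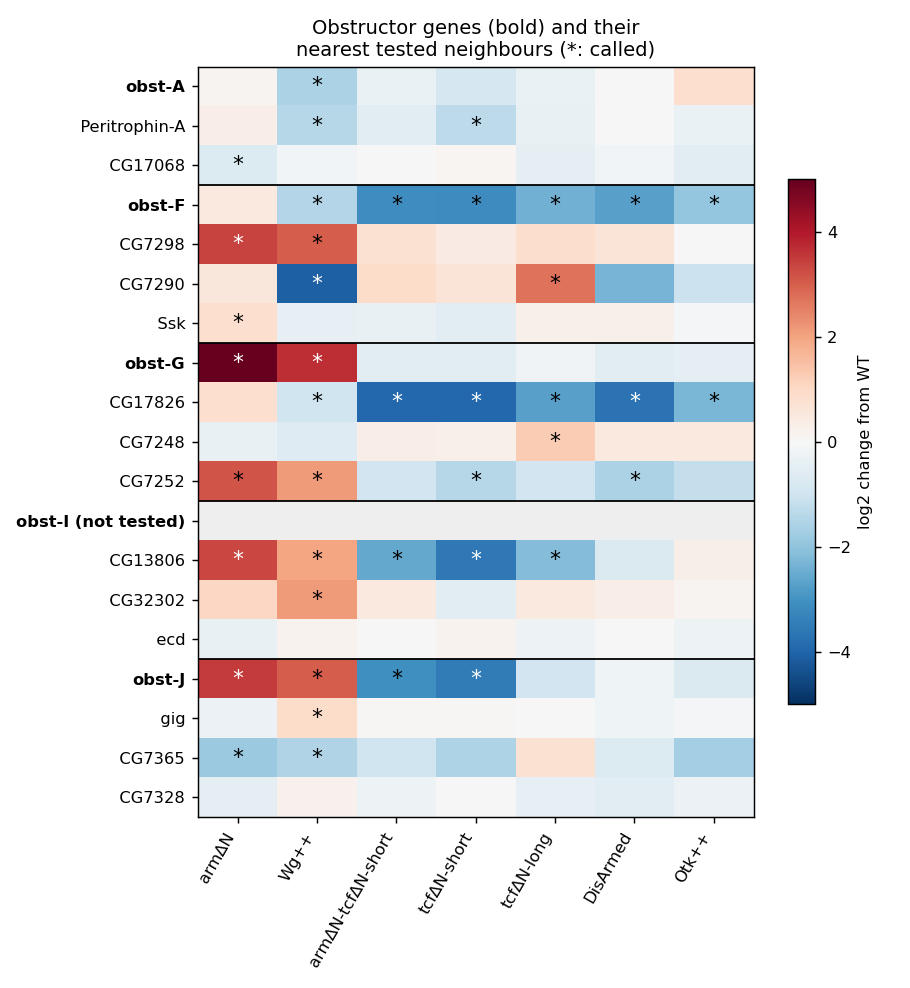
Log2 change from WT (colour) of 5 obstructor genes (bold) and up to 3 of their nearest tested neighbours (rows) in the 7 transgenic genotypes (columns); stars mark called changes and obst-I was not tested. CG17826 under obst-G is lower in every blocked state, with -3.93 in tcf∆N-short, while obst-G is higher in the 2 active states.

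Markers of other tissues are set beside the rise of obst-G, obst-H and obst-J because several peritrophin-type genes are made in the gut. Of 7 tested larval midgut markers, 5 were called lower in Wg++, and in arm∆N 3 were called lower and 1 higher. Over all genes 22.1% were called lower in Wg++, and 11.7% lower and 7.93% higher in arm∆N. The mean log2 value over the 7 was 5.06 to 5.21 in arm∆N and 4.30 in both Wg++ arrays, against 6.29 to 6.67 in WT. In tcf∆N-short 2 of the 7 were called higher and 2 lower, where 2.52% of all genes were called higher and 5.26% lower. Mal-A1, a maltase, differed from WT by -3.31 in arm∆N, -3.25 in Wg++ and 3.40 in tcf∆N-short, and lab, a homeotic gene of the midgut, by -1.77, -2.39 and -1.14, all called. Of 5 hindgut and foregut markers, none was called in arm∆N and 1 was called lower in Wg++ and 1 in tcf∆N-short, and their mean log2 value was 5.59 to 5.74 in arm∆N, 5.23 to 5.46 in Wg++ and 5.52 to 5.69 in WT. otp, a marker of the hindgut, averaged below 3 in all genotypes except Otk++, at 3.16. Of 4 tested neuronal markers, 1 was called higher and 1 lower in arm∆N, and 1 lower in Wg++. The single tested muscle marker, Mlc2, was called in neither. The part of any of these tissues in the obst-G, obst-H and obst-J values was not tested.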

How the data were processed

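The authors hybridised RNA of whole embryos to Affymetrix Drosophila 2 arrays and deposited GC-RMA normalised log2 values for 18952 probesets on 16 arrays, and the submitters' processing notes name GCRMA with no version. Genes came from the platform annotation and the RefSeq gene table: 13647 probesets had 1 gene, 402 several and 4903 none, of which 6 that belong to fixed lists or to wg and pan were named from the study's supplementary gene table. The gene of Arm is not reported here. As in the study's methods, each gene was read by its probeset of largest interquartile range, and genes above 2.5 on at least 2 arrays were tested (8866). limma 3.58.1 in R 4.3.3 fitted 1 coefficient per genotype over all 16 arrays, with 8 residual and 2.72 prior degrees of freedom, 7 contrasts with WT and 8 others. The fit was tested on simulated data. The scanner's signal over background and detection calls were not used here, and the number of arrays limits the precision. The labels do not say whether equal replicate numbers pair arrays, and the main fit did not use them. Named genes were the members, wg and pan, the 3 genes most like each tested member, up to 3 genes per list by the lowest F-test p, neighbours, and Notum, fz3 and nkd. The members, lists and tests were chosen with earlier results of these data known. Alternatives covered the filter, probeset, normalisation, variance model, replicate block, samples fitted, threshold and each array left out.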

Additional observations from a re-analysis of the deposited data

Results flagged for a closer look

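In 3 members the effect of arm∆N differed between embryos with and without tcf∆N-short by a test of the difference itself (limma's interaction contrast, adjusted over all 8866 genes). The effect with tcf∆N-short minus the effect without it was -5.41 for obst-G (adjusted p = 0.000120), -3.76 for obst-H (adjusted p = 0.00129) and -3.09 for obst-J (adjusted p = 0.0179). obst-G and obst-H were near the lowest value in both genotypes with tcf∆N-short, where a rise by arm∆N from a level below it would not be seen, so the size of the difference was not measured for these 2 genes. obst-J was above it, at 4.09 ± 0.73 in arm∆N-tcf∆N-short, against 3.67 ± 0.68 in tcf∆N-short (SD, n = 2 each). The obst-J call was lost in a fit of only the 4 genotypes compared (adjusted p = 0.116). Whether arm∆N was expressed in arm∆N-tcf∆N-short was not checked. Groups of 2 arrays are too small for a search for single arrays that lie apart.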

How the results depend on the processing

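Of the differences of the 7 tested members, 46 were called and 59 were not. All 46 kept their sign in each of 9 alternative settings and in the 16 fits that left out 1 array, 31 kept their call in all of them, and 38 kept it in every fit that left out an array. Of the 59 that were not called, 16 changed sign in some setting. A fit of only the genotypes compared, which has fewer arrays to estimate the spread, lost 12 calls: it called 0 members in tcf∆N-long against WT, 0 in DisArmed against WT, 0 in Otk++ against WT and 0 in tcf∆N-short against tcf∆N-long, in place of 2, 2, 1 and 2. Beyond these, the calls lost were obst-B in tcf∆N-short against WT and in arm∆N against tcf∆N-short, obst-E in Wg++ against arm∆N, and obst-J in arm∆N-tcf∆N-short against WT and in the interaction. At an FDR of 5%, Otk++ against WT held 0 called members and tcf∆N-short against tcf∆N-long held 1, and the F test altered 6 of 7 in place of 5. Without the filter on low values, tcf∆N-short against tcf∆N-long also held 1. Leaving out 1 array gave 0 to 1 called members in Otk++ against WT and 0 to 2 in tcf∆N-short against tcf∆N-long. The causes were not tested.

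With the replicate number as a block, Otk++ against WT held 2 called members, obst-H having joined obst-F with an adjusted p of 0.0907. The block also added obst-B in arm∆N-tcf∆N-short against arm∆N and obst-E in Wg++ against tcf∆N-short, and lost no call. The labels do not say whether equal numbers pair arrays. Differences of the first array from the second correlated between genotypes at -0.527 to 0.675 over the 28 pairs of genotypes. The median was 0.262, and 20 pairs lay above 0.1. Whether same-numbered arrays share variation was not tested. Over all genes the block moved the calls in Otk++ from 29 to 398, in tcf∆N-long from 332 to 793, in tcf∆N-short from 689 to 1168, and in tcf∆N-short against tcf∆N-long from 284 to 743, while the fit of only the genotypes compared called 0, 12, 79 and 16 genes there. It called 312 genes in place of 1739 in arm∆N, 42 in place of 282 in arm∆N-tcf∆N-short, 0 in place of 53 in DisArmed, 394 in place of 1158 in arm∆N against tcf∆N-short, 281 in place of 1035 in arm∆N-tcf∆N-short against arm∆N, 0 in place of 15 in arm∆N-tcf∆N-short against tcf∆N-short and 137 in place of 996 for the interaction. Cyclic loess between arrays moved the split of all called genes, higher against lower, to 801 and 657 in place of 703 and 1036 in arm∆N, to 158 and 87 in place of 132 and 200 in tcf∆N-long, to 11 and 10 in place of 11 and 18 in Otk++, and to 399 and 441 in place of 631 and 365 for the interaction, and among the called member differences it lost obst-E in Wg++ against arm∆N. The low signal of obst-I and of obst-G outside the active states limits what could be seen there.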
